A study of Solanum lycopersicum with 18 samples.

Results

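The genes described here encode proteins of the photosynthetic light reactions: the chlorophyll-binding antenna proteins CAB4, CAB5 and CAB6A, the photosystem I subunit listed as LOC543978 (synonym psaD), the photosystem II subunits PSBO, PSBP, PsbQ and PSBR, and the plastocyanin PETE. They are 9 probe sets, 1 for each gene, chosen by probe set name from the 10209 probe sets of the Affymetrix tomato array. All 9 passed the filter on dim signals that left 7717 probe sets for testing. No other named probe set on the array carries these genes.

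RNA came from pericarp, the fleshy fruit wall, of Pusa Ruby tomato (Solanum lycopersicum), either wild type or rin. The rin mutant has a defective RIN, a MADS-box transcription factor gene, and its fruit fails to ripen. Each genotype was sampled at 35, 40 and 45 days after planting (DAP, as the labels give it), with 3 arrays for each of the 6 groups and 18 in all. By label, fruit of both genotypes was immature green at 35 DAP, breaker at 40 DAP and red-ripe at 45 DAP, although ripening is blocked in rin. Both genotypes share the variety, and no agent is named for the fruit; the labels' growth and treatment notes speak of seedlings and shoots. The arrays are labelled as biological replicates, and the plant codes in their titles differ within each group and recur across ages. The labels do not state whether each code is a separate plant, and p-values measure the spread between these arrays alone.

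Photosystem II and photosystem I are pigment-protein complexes in the thylakoid membranes of the chloroplast. Antenna proteins bind chlorophyll and pass light energy to them, photosystem II oxidises water at a manganese cluster shielded by extrinsic proteins, and plastocyanin carries electrons to photosystem I. Green tomato fruit holds working chloroplasts, which turn into carotenoid-storing chromoplasts as wild-type fruit ripens.

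Signals are given as deposited, in linear intensity units, and differences between groups in log2 units. A signal at or below the 30th percentile of its own array, which lay between 11.3 and 15.34, is called dim. Where the lower group held dim signals, a fold is written as "at least": dim signals were then set to the 30th percentile. A gene was called at an adjusted p under 0.05 in limma's two-sided test with Benjamini-Hochberg adjustment over all 7717 probe sets. RNA of bulk tissue was measured, so fewer cells of a type and less RNA per cell cannot be told apart.

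The mutated gene matched the labels. RIN lay between 62.5 and 236.2 on the wild-type arrays at 35 DAP, between 4020 and 4911 at 40 DAP and between 5434 and 6929 at 45 DAP, and it was dim on all 9 rin arrays. Of 6 pericarp markers, 2A11 lay between 13424 and 21066 over all arrays, PE1 between 3265 and 14379, PME2.1 between 1047 and 3449, and E8 between 60.43 and 11349. The ripening polygalacturonase PG2 reached 25059 in wild type at 45 DAP, and in rin at that age it lay between 3695 and 5949. PG2 was dim on all 3 rin and 2 wild-type arrays at 35 DAP and on 1 rin array at 40 DAP. TPRP-F1 was dim on all arrays of 4 groups. The summed signal of the 6 lay between 33420 and 37302 in wild type at 35 DAP, between 58524 and 63725 at 40 DAP and between 50512 and 67514 at 45 DAP, and between 31863 and 45336 on all rin arrays. Wild-type means from 35 to 40 DAP rose for PG2 (21.63 to 18588) and E8 (2884 to 11053) and fell for PE1 (12289 to 9634). Those of 2A11 (18062 to 18955) and PME2.1 (2268 to 2164) changed little. At 45 DAP PE1 averaged 5602 in wild type and 12500 in rin. The rise of the sum is thus that of PG2 and E8, and pericarp content was not measured. Both seed markers, MAN1 and MAN2, were dim on all 18 arrays. The first rin arrays at 40 and at 45 DAP lay apart from the other arrays of their groups on the first principal component of all probe sets tested, which held 52.3% of the variance. Their positions were -7.35 against -55 and -54 at 40 DAP, and 16 against -8.36 and -9.47 at 45 DAP. The first wild-type array at 40 DAP also lay apart, at 74.5 against 49.9 and 53.2. Each call among the 9 genes that rests on those 2 rin arrays is given below with and without them. The second rin array at 35 DAP had the highest 3′ to 5′ signal ratio of the control transcripts, 2.1 in log2 units against 0.263 to 1.15 elsewhere.

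The 9 genes did not follow a single course. Between 40 and 45 DAP, CAB6A, LOC543978 and PsbQ fell in wild type, where 8.31% of all probe sets tested were called. In rin limma called 0 of the 9 in that step (1 at an unadjusted p under 0.05), where 0.363% were called. At 45 DAP, with 28.2% of all tested called, these 3 were higher in rin than in wild type, at least 44.9-fold for CAB6A, 8.45-fold for LOC543978 and 17.6-fold for PsbQ, while PETE was 3.05-fold lower. PSBO, PSBP and PSBR were called in none of the 12 comparisons.

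**Figure D1:**
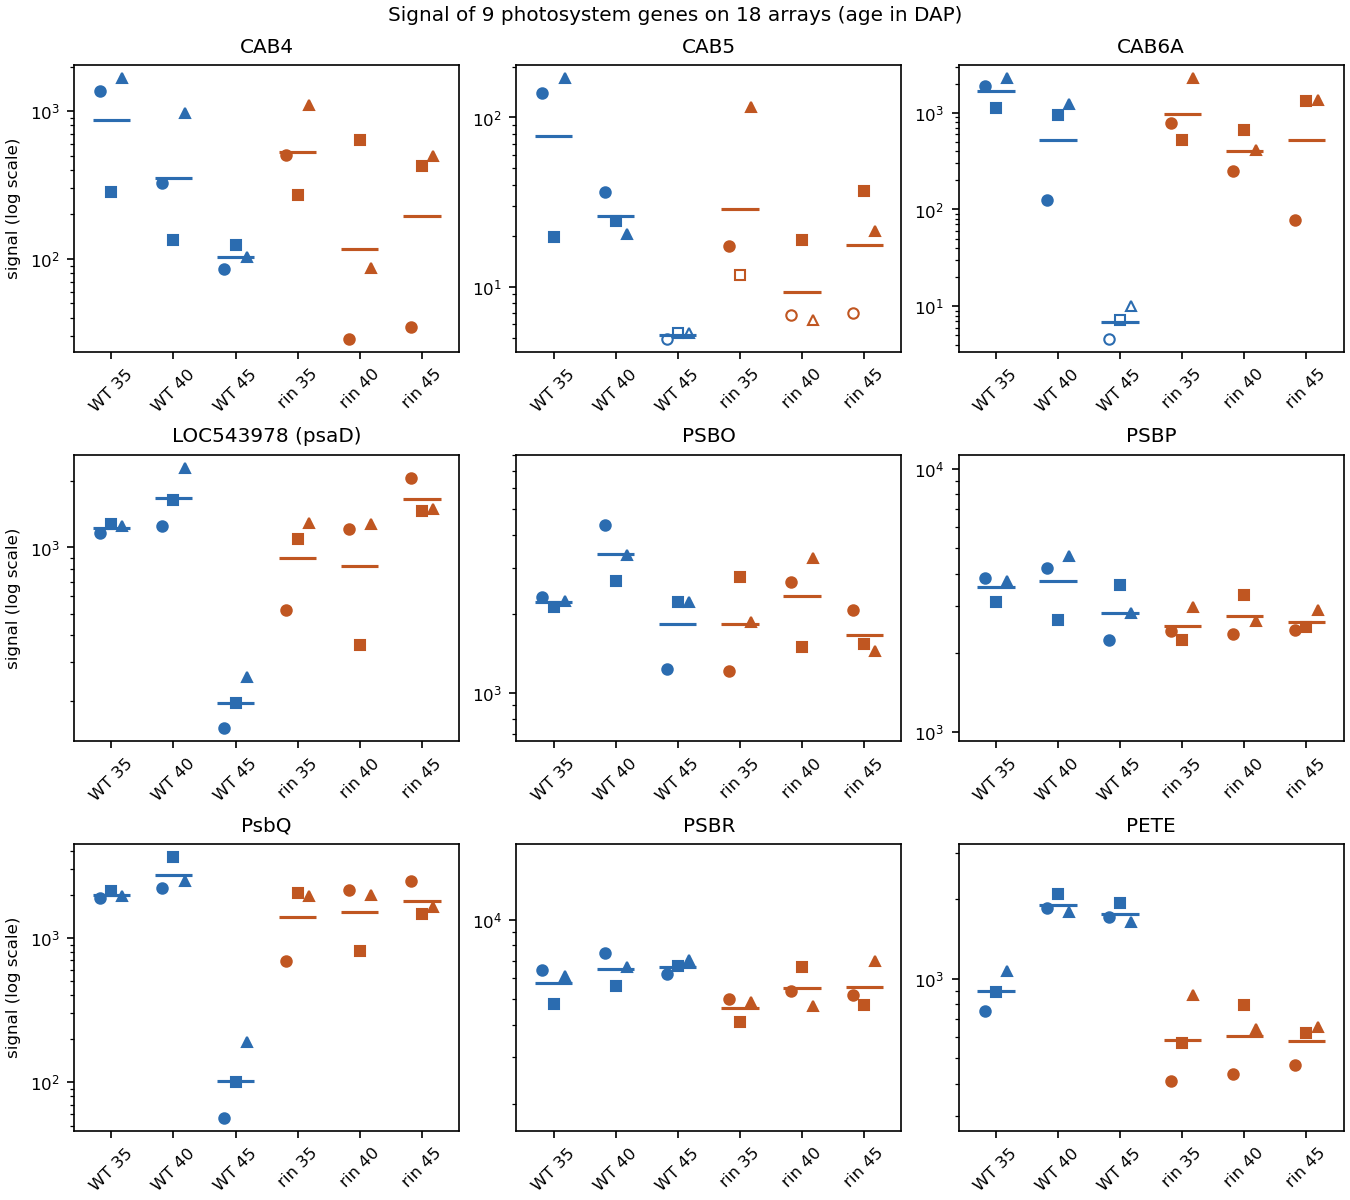
Deposited signal (log scale, linear intensity units) of each of the 9 genes on each array, for wild type (WT, blue) and rin (orange) at 35, 40 and 45 DAP; circles, squares and triangles are replicates 1, 2 and 3, open symbols are dim, and bars are geometric means. CAB6A, LOC543978 and PsbQ at 45 DAP in wild type lie below every other array, and PETE in wild type at 40 and 45 DAP lies above every other array.

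CAB6A, which encodes a light-harvesting protein of photosystem I, was the antenna gene called in most comparisons. Its wild-type signals were 1892, 1127 and 2269 at 35 DAP, then 123.9, 947.0 and 1236 at 40 DAP, and 4.601, 7.207 and 10.14 at 45 DAP. In rin they were 780.6, 517.5 and 2264 at 35 DAP, then 247.7, 666.5 and 407.1 at 40 DAP, and 77.14, 1324 and 1357 at 45 DAP. All 3 wild-type arrays at 45 DAP were dim, and no other array was; every other group overlapped with its neighbour in the order of levels.

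CAB6A fell by 6.24 in log2 units (SE 1.01) from 40 to 45 DAP in wild type, from 769.1 ± 577 to 7.316 ± 2.77 (SD, n = 3), which is at least 45.6-fold (limma, adjusted p = 0.00126). The fall from 35 to 45 DAP was also called (limma, adjusted p = 2.48e-05). Since the low group was dim throughout, these log2 values are not exact sizes: with an offset of 32 the fall from 40 DAP was -3.88. The difference between genotypes at 45 DAP was 6.22 (SE 1.01, adjusted p = 0.00035; 3.91 with the offset), at least 44.9-fold, with rin at 919.4 ± 730 (SD, n = 3). Single arrays moved these folds: without replicate 1, 2 or 3 of rin at 45 DAP the difference was at least 116-fold, 28.1-fold or 27.7-fold. Without replicate 1 or 3 of wild type at 40 DAP, the fall became at least 93.9-fold or 29.7-fold. Each stayed called.

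CAB4 and CAB5 encode light-harvesting proteins of photosystem II. They belong to a family with near-identical copies, and how far their probes also read other copies was not tested, so their signals are uncertain as those of single genes. CAB4 read 1372, 284.4 and 1668 at 35 DAP in wild type, 326.5, 135.3 and 974.2 at 40 DAP, and 84.84, 125.0 and 102.5 at 45 DAP. In rin it read 505.3, 269.3 and 1100, then 28.78, 639.7 and 86.91, then 34.70, 423.1 and 498.1. The rin arrays of different ages overlapped at every age, as did the genotypes; in wild type the 45 DAP arrays lay below those of both earlier ages.

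CAB4 fell 8.43-fold from 35 to 45 DAP in wild type (log2 -3.08, SE 1.16; limma, adjusted p = 0.0433). That call was lost with no filter on dim signals (adjusted p = 0.0567) and when any array of these groups but the second at 35 DAP was left out (0.076 to 0.136). Without the second, the fold was 14.7. The genotypes were not called apart at any age: at 45 DAP the difference was 0.92 with a 95% interval from -1.55 to 3.38, and without both first rin arrays it was 2.16 (adjusted p = 0.111).

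CAB5 lay close to the dim range, with wild-type signals of 140.1, 19.57 and 170.5 at 35 DAP, 36.32, 24.47 and 20.53 at 40 DAP, and 4.908, 5.284 and 5.338 at 45 DAP. In rin they were 17.40, 11.78 and 114.9, then 6.819, 18.89 and 6.343, then 6.986, 36.60 and 21.19. Dim signals made up all 3 wild-type arrays at 45 DAP, 1 rin array at 35 DAP, 2 at 40 DAP and 1 at 45 DAP; these carry no order among themselves. In wild type CAB5 fell at least 6.74-fold from 35 to 45 DAP (log2 -3.91, SE 0.89, or -1.71 with an offset of 32; limma, adjusted p = 0.00263), and at least 13.4-fold without the second array at 35 DAP. The step from 40 to 45 DAP was -2.35 (adjusted p = 0.121), and it was called when only those groups were fitted (adjusted p = 0.00742). For rin against wild type at 45 DAP the difference was 1.76 with a 95% interval from -0.13 to 3.65 (adjusted p = 0.155).

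LOC543978 encodes subunit D of photosystem I, which sits on the stromal side of the complex where ferredoxin docks. Its signals in wild type were 1164, 1278 and 1247 at 35 DAP, 1253, 1639 and 2306 at 40 DAP, and 150.2, 195.4 and 256.9 at 45 DAP. In rin they were 516.7, 1093 and 1290, then 1214, 359.4 and 1273, then 2078, 1466 and 1494. The wild-type arrays at 45 DAP lay below all 15 others, and the rin arrays at 45 DAP lay within the range of wild type at 40 DAP.

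From 40 to 45 DAP LOC543978 fell 8.56-fold in wild type (log2 -3.10, SE 0.43; limma, adjusted p = 0.000382). Against wild type at 45 DAP, at 200.8 ± 53.6, rin stood 8.45-fold higher at 1679 ± 346 (SD, n = 3; log2 3.08, SE 0.43; limma, adjusted p = 0.00011). Within rin the same step was 1.01 in the other direction, with an unadjusted p of 0.0341 and an adjusted p of 0.372 in limma, and was not called. At 40 DAP rin was lower by 1.03 (adjusted p = 0.0924), not called.

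PsbQ is an extrinsic subunit on the lumenal side of photosystem II, next to the water-oxidising cluster. In wild type it read 1885, 2104 and 1941 at 35 DAP, 2226, 3626 and 2497 at 40 DAP, and 56.66, 100 and 191.0 at 45 DAP. In rin it read 697.5, 2059 and 1948, then 2159, 819.0 and 1990, then 2468, 1461 and 1629. The lowest signal outside wild type at 45 DAP was 697.5, so that group stood apart from the other 5.

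The fall of PsbQ from 40 to 45 DAP in wild type was 26.5-fold (log2 -4.73, SE 0.48; limma, adjusted p = 2.04e-05). Against 35 DAP it was 19.2-fold (limma, adjusted p = 7.5e-06). At 45 DAP rin was 17.6-fold higher, at 1852 ± 539 against 115.9 ± 68.6 (SD, n = 3; log2 4.14, SE 0.48; limma, adjusted p = 1.91e-05).

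The other photosystem II subunits did not share a fall of that size. PSBO, the manganese-stabilising protein, read 2312, 2118 and 2240 at 35 DAP in wild type, 4361, 2658 and 3343 at 40 DAP, and 1237, 2223 and 2225 at 45 DAP. In rin it lay between 1211 and 2754 at 35 DAP, 1501 and 3251 at 40 DAP, and 1441 and 2063 at 45 DAP. Its wild-type arrays at 40 DAP lay above those of both other wild-type ages, but neither step was called (0.61, adjusted p = 0.178, and -0.89, adjusted p = 0.115).

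PSBP, a further extrinsic subunit of the water-oxidising side, lay between 2230 and 4669 on all wild-type arrays and between 2230 and 3323 on all rin arrays. PSBR, a small photosystem II protein, lay between 4773 and 7449 in wild type and between 4100 and 6968 in rin. The difference of rin from wild type at 45 DAP was -0.14 for PSBO (95% interval -0.84 to 0.56), -0.12 for PSBP (-0.59 to 0.35) and -0.26 for PSBR (-0.62 to 0.11). These intervals leave out differences of the size seen for PsbQ.

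PETE, the copper protein that carries electrons from the cytochrome b6f complex to photosystem I, went the other way. Wild-type signals were 752.1, 889.1 and 1070 at 35 DAP, 1851, 2097 and 1794 at 40 DAP, and 1717, 1940 and 1648 at 45 DAP. Those of rin were 408.2, 571.1 and 869.2, then 433.4, 797.7 and 642.1, then 471.1, 623.1 and 657.7. Wild type at 40 and 45 DAP did not overlap with any other group, whereas the 3 rin groups overlapped with each other.

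PETE rose 2.14-fold from 35 to 40 DAP in wild type (log2 1.09, SE 0.26; limma, adjusted p = 0.00604) and stood 1.97-fold above its 35 DAP level at 45 DAP (adjusted p = 0.00787). Against wild type it was lower in rin by 3.15-fold at 40 DAP (log2 -1.66, SE 0.26; limma, adjusted p = 0.000464) and by 3.05-fold at 45 DAP (log2 -1.61, SE 0.26; adjusted p = 0.00039). The means were 624.4 ± 183 against 1914 ± 161 at 40 DAP, and 584.0 ± 99.3 against 1768 ± 153 at 45 DAP (SD, n = 3). At 35 DAP the difference was -0.61 (adjusted p = 0.557). Whether its rise differed between genotypes was not settled: the interaction from 35 to 40 DAP was -1.05 (limma, adjusted p = 0.0875), called without the first rin array at 35 DAP (-1.31, adjusted p = 0.024).

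**Figure D2:**
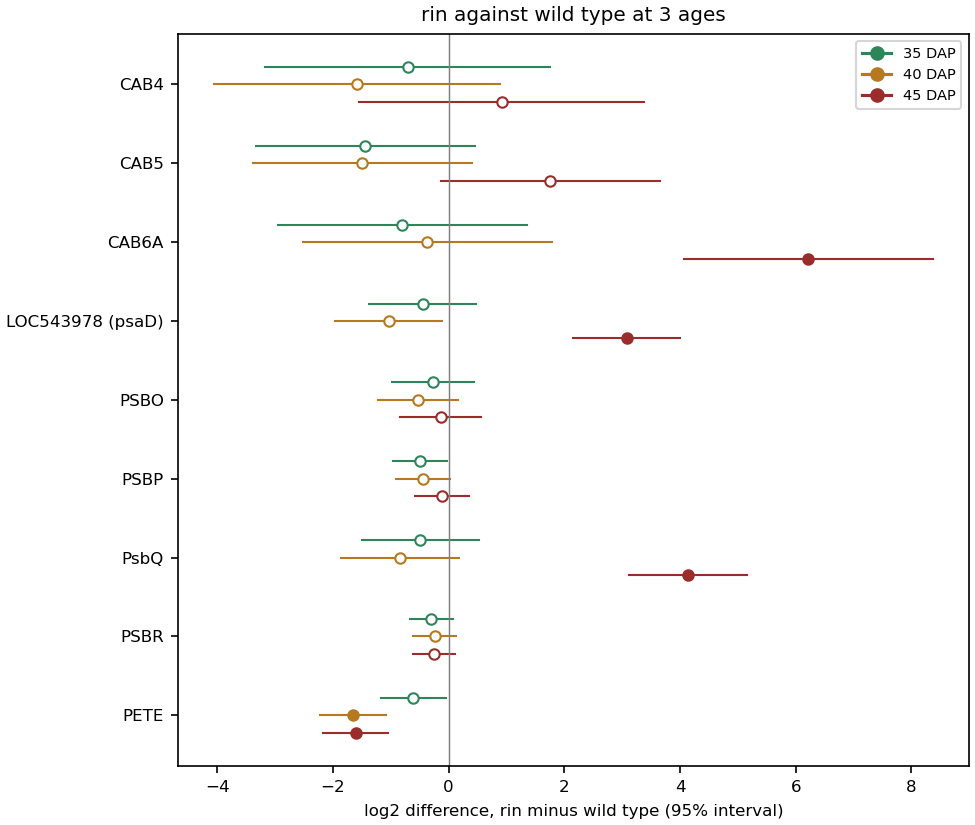
Log2 difference, rin minus wild type, for each gene at 35, 40 and 45 DAP with 95% intervals from limma; filled points were called. At 45 DAP CAB6A, LOC543978 and PsbQ lie to the right of 0 with filled points and PETE to the left, and at 35 DAP no point is filled.

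Counted over the 9 genes, rin against wild type at 35 DAP gave 0 calls in limma, where 0.337% of all probe sets tested were called. At an unadjusted p under 0.05 there were 2, PSBP and PETE (-0.50 and -0.61). At 40 DAP the count was 1, PETE, lower in rin, against 25.9% of all tested in either direction and 10.8% lower. At 45 DAP it was 3 higher and 1 lower, against 28.2%, of which 13.2% were higher and 15% lower. The arrays of the genotypes did not overlap for 1 gene at 35 DAP, 3 at 40 DAP and 5 at 45 DAP, against 12.5%, 40.0% and 48.6% of all tested.

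All 9 differences were below 0 at 35 and at 40 DAP, where 52.6% and 46.5% of all tested lay below 0. Their medians were -0.496 and -0.84, against -0.0265 and 0.0677 over all tested. Both counts held with quantile normalization, median centring and an offset of 32, but PSBO and PsbQ at 35 DAP and CAB6A at 40 DAP turned to small positive values when 1 array was left out. At 45 DAP 5 were above 0 and 4 below, with a median of 0.917 against -0.115.

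Over age in wild type, 1 of 9 was called from 35 to 40 DAP, higher (30.9% of all tested called, 14.5% higher). From 40 to 45 DAP 3 were lower and none higher (8.31% called, 4.74% lower and 3.56% higher). From 35 to 45 DAP 5 were lower and 1 higher (42.6% called, 18.9% lower and 23.6% higher), with a median over the 9 of -2.65 against 0.164 over all tested. In rin, limma called 0 of 9 from 35 to 40 DAP, from 40 to 45 DAP and from 35 to 45 DAP, where 0.0259%, 0.363% and 11.3% of all tested were called. At an unadjusted p under 0.05 the counts were 0, 1 and 0 in rin, and 1, 5 and 6 for the same steps in wild type.

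**Figure D3:**
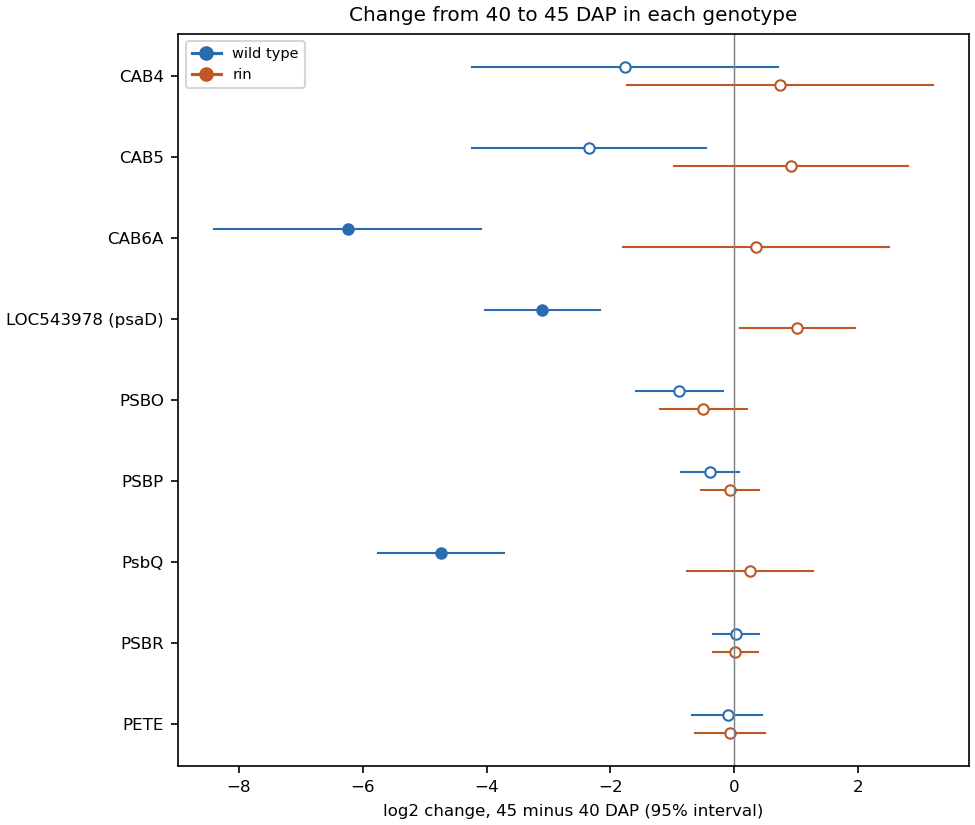
Log2 change from 40 to 45 DAP for each gene in wild type (blue) and rin (orange), with 95% intervals from limma; filled points were called. CAB6A, LOC543978 and PsbQ in wild type are the filled points, at -6.24, -3.10 and -4.73, and no rin point is filled.

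The difference between the genotypes in their change with age was tested directly. From 40 to 45 DAP the change in rin minus that in wild type was called, above 0, for 3 of 9, where 3.81% of all tested were called and 2.22% above 0: 6.59 for CAB6A (SE 1.43; limma, adjusted p = 0.023), 4.11 for LOC543978 (SE 0.61; 0.00242) and 4.97 for PsbQ (SE 0.67; 0.00141). For CAB6A, which was dim in wild type at 45 DAP, 9 of 23 alternatives lost that call, with adjusted p from 0.0556 to 0.0788; the value with an offset of 32 was 4.30. From 35 to 45 DAP the same 3 were called, where 13.2% of all tested were and 7.22% above 0: 7.02 for CAB6A (adjusted p = 0.00484), 3.53 for LOC543978 (0.0017) and 4.62 for PsbQ (0.000483). CAB5 gave 3.20 (adjusted p = 0.106). From 35 to 40 DAP none of the 9 was called by limma, against 9.37%, and 1 (PETE) had an unadjusted p under 0.05. These comparisons share their wild-type and rin arrays with the ones above.

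Without both first rin arrays at 40 and 45 DAP, rin against wild type at 45 DAP was 7.59 for CAB6A (limma, adjusted p = 2.9e-05), 2.92 for LOC543978 (0.000622), 3.91 for PsbQ (0.000157) and -1.46 for PETE (0.00118). CAB5, not called, moved to 2.43 (adjusted p = 0.0755). At 40 DAP PETE was -1.42 (limma, adjusted p = 0.00169), and LOC543978, not called, was -1.31 (0.0591). The interaction from 40 to 45 DAP was then 7.60 for CAB6A (limma, adjusted p = 0.00323), 4.23 for LOC543978 (0.00424) and 5.00 for PsbQ (0.00274). Against 35 DAP it was 8.39, 3.37 and 4.40 in the same order (adjusted p = 0.000329, 0.00397 and 0.00145). The first rin array at 45 DAP held the lowest CAB6A and CAB4 of its group and the highest LOC543978 and PsbQ.

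Of the 3 measured markers of the epidermis and cuticle (TSW12, LE16 and ltpg1, lipid transfer proteins), 1 was called lower from 40 to 45 DAP in wild type, ltpg1 (log2 -6.10, SE 1.01; limma, adjusted p = 0.00147), where 4.74% of all tested were. At 45 DAP 2 of the 3 were higher in rin, ltpg1 (6.32, adjusted p = 0.000318) and TSW12 (4.96, adjusted p = 0.0379), where 13.2% of all tested were. Both interactions up to 45 DAP called 1 of the 3, ltpg1 (6.37 and 6.40, adjusted p = 0.0268 and 0.00848). The summed signal of the 3 lay between 910.8 and 2878 on the wild-type arrays at 45 DAP and between 7177 and 22388 on the 15 others, and none was at 0. Of these, ltpg1 lay between 28.2 and 2113 in that group and between 6464 and 15214 in the others. LE16 (746.1 to 982.5) and TSW12 (18.58 to 90.94) in that group overlapped with other groups. In rin at 45 DAP TSW12 lay between 112.8 and 5255, with an SD of 2740 around a mean of 3239. Its call was not repeated with arrays left out. The part of these markers in the fall of CAB6A, LOC543978 and PsbQ was not tested.

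Differences of log2 signals within an array do not depend on the scaling of that array. These pairs were chosen after the values had been seen, so they restate the separate courses of the genes on another scale and do not support them. PsbQ minus PSBO averaged -0.17 ± 0.15 at 35 DAP and -0.31 ± 0.72 at 40 DAP in wild type, then -4.15 ± 0.53 at 45 DAP, against 0.12 ± 0.17 in rin at 45 DAP (SD, n = 3). The change from 40 to 45 DAP in wild type was -3.84 for PsbQ minus PSBO, -4.33 for PsbQ minus PSBP, -4.76 for PsbQ minus PSBR and -2.21 for LOC543978 minus PSBO. In each of these pairs the 2 groups did not overlap, with an exact two-sided permutation p = 0.1, the smallest that 3 arrays against 3 can give. At 45 DAP rin differed from wild type by 4.27, 4.26, 4.39 and 3.22 in the same order, again with no overlap (exact permutation p = 0.1). Some steps in rin separated with the same p: from 40 to 45 DAP PsbQ minus PSBO differed by 0.74 and LOC543978 minus PSBO by 1.51, and the latter by 1.03 from 35 DAP. PETE minus PSBO overlapped from 40 to 45 DAP in wild type (0.77, exact permutation p = 0.2) and differed by -1.47 between the genotypes at 45 DAP (exact permutation p = 0.1). None of these differences shows that PSBO, PSBP or PSBR stayed constant.

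**Figure D4:**
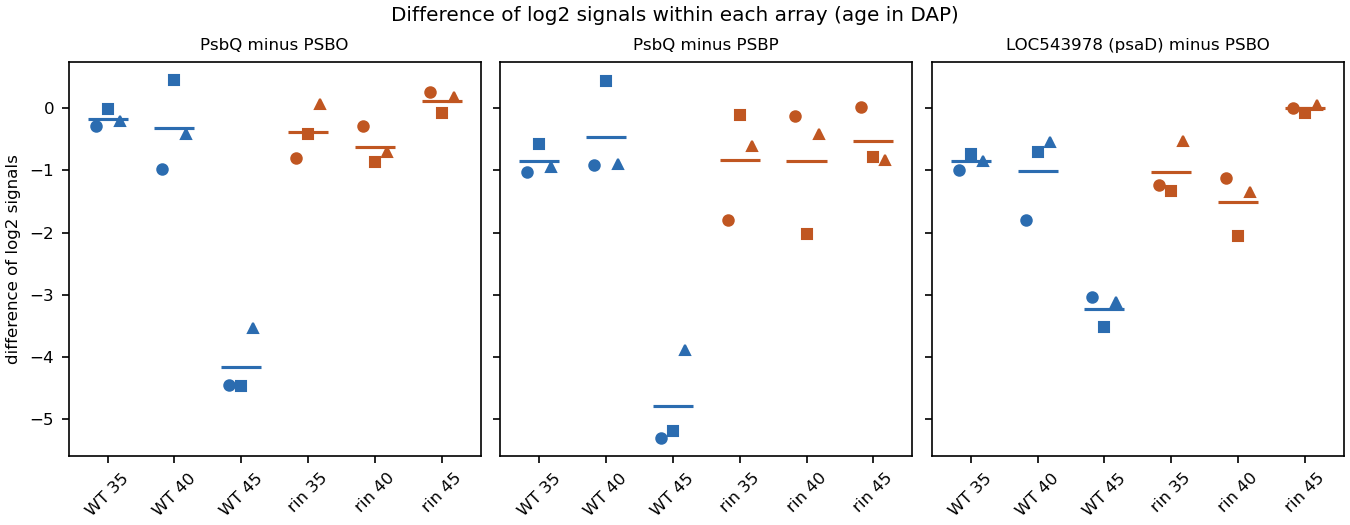
Difference of log2 signals within each array for PsbQ minus PSBO, PsbQ minus PSBP and LOC543978 minus PSBO, by genotype and age (WT blue, rin orange; symbols are replicates 1, 2 and 3, bars are means). Wild type at 45 DAP lies below every other group in each panel.

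Arrays of a group agreed least for the antenna genes. The SD within groups, in log2 units, was 1.58 for CAB4, 1.19 for CAB5 and 1.37 for CAB6A, above 97.7%, 94.3% and 96.3% of all probe sets tested, whose median was 0.41. It was 0.576 for LOC543978, 0.639 for PsbQ, 0.434 for PSBO, 0.331 for PETE, 0.277 for PSBP and 0.214 for PSBR. The lowest array of a group was the same for LOC543978 and PsbQ in 6 of 6 groups, for CAB4 and PSBP in 6 of 6, and for CAB4 and CAB6A in 5 of 6. For CAB4 and PsbQ the lowest array was the same in 1 of 6 groups, and for PSBR and PETE in 0 of 6. These counts were chosen after the values had been seen, and the genes of a pair were read from the same arrays.

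The order of the group levels also differed among the genes. CAB4, CAB5 and CAB6A were highest in wild type at 35 DAP and lowest in wild type at 45 DAP, with neighbours in the order overlapping except for the last step of CAB6A and of CAB5, which rests on dim signals. LOC543978 and PsbQ were highest in wild type at 40 DAP and lowest in wild type at 45 DAP, but for LOC543978 the highest group overlapped with rin at 45 DAP (geometric means 1679 and 1657). PSBO, PSBP and PETE were also highest in wild type at 40 DAP, each overlapping with the next group, but were lowest in a rin group. PSBR was highest in wild type at 45 DAP, with all neighbours overlapping.

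Each gene's 6 group means were scaled and averaged over the 9 genes, and 678 other named probe sets were set against that average. The highest Pearson correlations, over 6 group means that share arrays and with no test, were 0.953 for XTH3, a xyloglucan endotransglucosylase, 0.95 for LOC543515 (synonym XYL2), 0.895 for LOC543701, 0.851 for SAR2 and 0.85 for MPK3, a mitogen-activated protein kinase. The lowest were -0.896 for DHS, -0.917 for LOC543870 and -0.931 for SNF1. Of the 9 genes themselves, PSBP was closest to the average (0.846), and PSBR (0.154) and PETE (0.253) were farthest. Each of the 9 is part of that average, and scaling gives small and large changes the same weight.

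Other plastid genes were taken as 3 lists. Of 7 tested genes of photoprotection and plastid redox, 2 were higher and 1 lower in rin at 45 DAP (28.2% of all tested called). The chloroplast glutamine synthetase GS2 was at least 3.81-fold higher (log2 3.06, SE 0.66; limma, adjusted p = 0.00295) and the violaxanthin de-epoxidase VDE at least 5.06-fold (adjusted p = 0.0125). VDE has 2 probe sets on the array, and its fold is from the 1 that passed the filter. The other was dim on every array and was not tested. Its mean signals at 45 DAP were 4.242 in rin and 4.387 in wild type, and as dim signals they cannot show whether it rose in rin. The plastid terminal oxidase PTOX was 4.02-fold lower (adjusted p = 9.48e-05). From 35 to 45 DAP in wild type, PTOX rose 6.86-fold and the chromoplast protein ChrC 3.34-fold, and GS2 fell at least 12.2-fold (adjusted p = 2.73e-06, 0.000432 and 5.1e-05 in limma).

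Of 11 tested genes of light signalling and plastid development, 4 rose and 1 fell from 35 to 45 DAP in wild type (42.6% of all tested called). DCL, needed for chloroplast development, rose 6.11-fold, and DDB1 and DET1, repressors of light responses, rose 1.91-fold and at least 2.55-fold (limma, adjusted p = 9.52e-05, 0.00376 and 0.00618). The blue-light receptor gene Cry1b fell at least 26.0-fold (adjusted p = 2.2e-05). At 45 DAP Cry1b was at least 11.7-fold higher in rin and DCL 4.12-fold lower (adjusted p = 0.000331 and 0.00125), and the other 9 were not called, where 28.2% of all tested were. Of the list of chlorophyll and tetrapyrrole synthesis, 2 genes were tested, POR2 and GSA-AT, and neither was called by limma in those comparisons. AUREA and HO2 of that list were too dim to test. POR2, which encodes the light-dependent protochlorophyllide reductase and is named here after its values were seen, was 4.49-fold lower in rin at 40 DAP (limma, adjusted p = 0.00172).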

How the data were processed

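The authors deposited linear intensity values, 1 for each probe set on each array, made with GCOS per the submitters' processing notes. The arrays had trimmed means of 327.6 to 348.2 and so were already at a common level; the scaling target and the genome build are not given in the sources used here. Log2 signals were used with no added normalization. From the 10209 probe sets, 108 controls were dropped, and 2384 that exceeded their own array's 30th percentile on fewer than 3 arrays were also dropped. Group means were fitted to all 18 arrays with limma 3.58.1 in R 4.3.3 (eBayes with trend), tested on simulated data, with Benjamini-Hochberg adjustment within each comparison. Genotypes were compared at each age, ages were compared in pairs within each genotype, and interactions were tested. Means and SDs are of linear signals, folds are ratios of geometric means, and 3 arrays a group limit the precision.

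Gene names came from the platform annotation, with 909 probe sets carrying 1 symbol and 9192 none; 885 matched the RefSeq table of assembly SLM_r2.1, the 9 genes among them. The 9 genes and all lists were chosen with earlier results of these data known. The lists were rewritten as symbols once the annotation was seen, because it holds no gene titles, and PTOX, AUREA, HO2, CUL4, PHYA, the cryptochromes and DCL were added then, before their values were computed. Named by rule were the 9 genes, RIN, and the 5 named probe sets most like the average of the 9 genes and the 3 least like it. So were up to 3 called genes of each list and direction with the smallest adjusted p. These were taken at 45 DAP against wild type and from 35 to 45 DAP in wild type. Other genes are named as markers or said to be chosen later. The "at least" folds for partly dim groups, the within-array differences, shares of signs and the fit without both first rin arrays were added after seeing the data. Alternatives were quantile normalization, median centring, an offset of 32, no filter and a stricter one, no variance trend, only the groups compared, replicate and plant blocks, averaging rin replicates 2 and 3 at 45 DAP, and leaving out each array.

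Replicate numbers were not treated as a pairing of the arrays. Of 45 same-numbered pairs, 14 had deviations from their group means correlated above 0.1 (from -0.501 to 0.483). Among 90 pairs with different numbers, 22 did (from -0.484 to 0.408). In rin, replicates 2 and 3 each kept their own plant code at all ages, whereas in wild type the numbers mostly did not follow the codes. Of 11 pairs that share a plant code, 2 were above 0.1.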

Additional observations from a re-analysis of the deposited data

Results flagged for a closer look

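The change with age differed between the genotypes for 3 genes, by a test of the difference itself (limma's interaction term). From 40 to 45 DAP the change in rin minus that in wild type was 6.59 log2 units for CAB6A, 4.11 for LOC543978 and 4.97 for PsbQ. From 35 to 45 DAP it was 7.02 for CAB6A, 3.53 for LOC543978 and 4.62 for PsbQ. All 3 wild-type CAB6A signals at 45 DAP were dim, and with an offset of 32 its difference from 40 to 45 DAP was 4.30 and no longer called (adjusted p = 0.0788). Groups of 3 arrays were not tested for single outlying arrays.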

How the results depend on the processing

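Of 21 calls among the 9 genes and 12 comparisons, 19 held under every alternative run. The exceptions were CAB4 from 35 to 45 DAP in wild type (11 of 17 alternatives) and CAB6A in the interaction from 40 to 45 DAP (14 of 23). The count of genes called changed by over 1.5 times in 3 comparisons: rin against wild type at 40 DAP, 1 to 2 over the arrays left out (2 without wild-type replicate 2, adding PSBP, -0.68, adjusted p = 0.029 in limma); wild type from 35 to 40 DAP, 1 to 2 (2 without replicate 2 at 35 DAP, adding CAB5, -2.55, adjusted p = 0.0391); and the interaction from 35 to 40 DAP, 0 to 1 (PETE). With the replicate number as a block the last count was 1 (PETE, limma, adjusted p = 0.0489). PETE was then also called in the interaction from 35 to 45 DAP (limma, adjusted p = 0.0474), and no other call changed with the block. The numbers mostly followed the plant codes in rin and mostly did not in wild type. Without rin replicate 1 at 35 DAP PETE had -1.27 (adjusted p = 0.023) in that interaction, and CAB5 had 4.19 and 4.20 (adjusted p = 0.0294 and 0.0309) without wild-type replicate 2 or rin replicate 3 at 35 DAP. Over all genes and comparisons, 96 of 1998 recomputed log2 differences changed direction, in 36 of 108 results, none of them called before or after; the cause was not tested. With both first rin arrays at 40 and 45 DAP left out, values that turned were -0.14 for PsbQ (rin 40 against 35 DAP), 0.47 for CAB6A (rin 45 against 35 DAP), 0.12 for PETE (rin 45 against 35 DAP), 0.14 for CAB4 (interaction, 40 against 35 DAP), 0.17 for CAB5 (interaction, 40 against 35 DAP), 0.01 for PSBR (interaction, 45 against 40 DAP), -0.05 for PETE (interaction, 45 against 40 DAP) and -0.02 for PSBO (interaction, 45 against 35 DAP). With median centring, values that turned were -0.02 for PETE (rin 40 against 35 DAP), -0.02 for PSBP (rin 45 against 35 DAP), -0.08 for PSBP (interaction, 40 against 35 DAP), -0.07 for PSBR (interaction, 40 against 35 DAP) and -0.08 for PSBR (interaction, 45 against 35 DAP). With rin 45 DAP replicates 2 and 3 averaged, values that turned were -0.34 for CAB6A (rin 45 against 40 DAP), -0.01 for PSBR (rin 45 against 40 DAP) and -0.03 for PETE (interaction, 45 against 40 DAP). With quantile normalization, values that turned were 0.00 for PETE (rin 45 against 35 DAP) and 0.07 for PSBR (interaction, 45 against 40 DAP). With log2 of signal plus 32, the value that turned was 0.36 for CAB5 (interaction, 40 against 35 DAP). The others came from leaving out 1 array. For rin against wild type at 35 DAP, the ranges were -0.56 to 0.03 for PSBO and -0.76 to 0.02 for PsbQ. In rin against wild type at 40 DAP, the range was -1.41 to 0.25 for CAB6A. For rin against wild type at 45 DAP, the ranges were -0.42 to 0.00 for PSBO and -0.30 to 0.05 for PSBP. In wild type 40 against 35 DAP, the range was -0.09 to 0.31 for PSBP. For wild type 45 against 40 DAP, the range was -0.08 to 0.13 for PSBR. In wild type 45 against 35 DAP, the range was -0.42 to 0.00 for PSBO. For rin 40 against 35 DAP, the ranges were -0.53 to 0.47 for LOC543978, -0.01 to 0.25 for PSBP, -0.40 to 0.56 for PsbQ and -0.22 to 0.33 for PETE. In rin 45 against 40 DAP, the ranges were -0.28 to 1.97 for CAB4, -0.35 to 1.72 for CAB6A, -0.19 to 0.06 for PSBP, -0.20 to 0.50 for PsbQ, -0.15 to 0.15 for PSBR and -0.31 to 0.13 for PETE. For rin 45 against 35 DAP, the ranges were -1.35 to 0.30 for CAB5, -1.60 to 0.47 for CAB6A, -0.45 to 0.14 for PSBO, -0.04 to 0.17 for PSBP, -0.15 to 0.63 for PsbQ and -0.29 to 0.26 for PETE. In the interaction, 40 against 35 DAP, the ranges were -2.10 to 0.14 for CAB4, -0.70 to 0.95 for CAB5, -0.61 to 1.05 for CAB6A, -0.98 to 0.02 for LOC543978, -0.56 to 0.07 for PSBO, -0.19 to 0.21 for PSBP, -0.86 to 0.09 for PsbQ and -0.07 to 0.19 for PSBR. For the interaction, 45 against 40 DAP, the ranges were -0.18 to 0.12 for PSBR and -0.19 to 0.25 for PETE. In the interaction, 45 against 35 DAP, the ranges were -0.17 to 0.43 for PSBO and -0.11 to 0.18 for PSBR. Signals near the dim level limit CAB5, and CAB6A in wild type at 45 DAP: with an offset of 32 before log2, CAB6A gave 3.91 in place of 6.22 for rin against wild type at 45 DAP, -3.88 in place of -6.24 for wild type 45 against 40 DAP and 4.30 in place of 6.59 for that interaction, and CAB5 gave -1.71 in place of -3.91 for wild type 45 against 35 DAP.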
